A study of Canis lupus familiaris with 4 samples.

Results

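The genes described here are those of the MHC class II pathway that dogs share with other mammals, namely the transactivator CIITA, the invariant chain CD74, and DLA-DRA, DLA-DRB1, DLA-DQA1, DLA-DQB1, DLA-DMA, DLA-DMB and DLA-DOB. They are 9 of the 14745 gene symbols on the array, taken by their symbol, and all 22 of their probes were used, of 43603 probes in all. DLA-DRB1 is listed on the array under the human symbol HLA-DRB1 and was matched through a RefSeq synonym. The genes were chosen by their class II role with earlier results known, and so count as selected on their ratios of co-culture to single culture and their background flags in both lines. Those ratios are therefore given as a description, without a test.

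Class II molecules are pairs of an alpha and a beta chain that carry peptides from the endosome to the cell surface, where CD4 T cells read them. CIITA binds no DNA itself and is recruited to class II promoters by RFX, NF-Y and CREB proteins. CD74 blocks the peptide groove until it is cut away, the DM pair then loads peptides, and the DO pair restrains DM. Dendritic cells and B cells make class II constantly, macrophages make it at levels that follow their activation, and many epithelial cells make it after interferon-gamma.

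RNA was taken at day 3 from stem-like cells of P114 and of CMT-U27, both lines grown from mammary cancers of dogs. The cells had been sorted as Sca1+/EpCAM+/CD44+, a rare fraction of each line, and were kept alone (single culture) or with tumour-associated macrophages (co-culture). The culture medium for both was RPMI-1640 with fetal bovine serum, penicillin-streptomycin and fungizone, and neither group carried an engineered allele. Each line had 2 two-colour arrays with exchanged dyes, and every array held both cultures, so n = 2 arrays for each line. The co-culture was in Cy3 on P114 replicate 1 and CMT-U27 replicate 2, and in Cy5 on the others. Separate cultures or extracts are not named in the labels, which speak only of biological replicates, so p-values measure the spread between these arrays and this may be technical. They do not say whether macrophages were removed before RNA was taken. In such bulk RNA, fewer cells of a type and less RNA per cell cannot be told apart.

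P114 replicate 1 stood apart, with 89.4% of its co-culture spots and 91.7% of its single-culture spots well above background. The other 3 arrays lay between 57.9% and 65.7%. Over all probes the ratios of the 2 arrays correlated at -0.149 in P114 and at 0.053 in CMT-U27 (Pearson's r; probes are no independent replicates). The direction of each ratio rests on the dyes in the labels. The 6 epithelial markers on the array, which check the sorted cell type, were well above background in every line and culture.

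Of the 22 class II probes, 17 passed the filter, by which both arrays of 1 or more of the line and culture groups had to show the spot well above background. These cover 8 genes; DLA-DOB did not pass. The filter was met through CMT-U27 alone by 14 of the 17, so counts over these probes support nothing about the lines. Both arrays gave a spot well above background for 17 of 22 probes in CMT-U27 co-culture and for 12 in CMT-U27 single culture. In P114 the counts were 3 in co-culture and 2 in single culture, whereas 60.0% and 61.4% of all probes did so there. By array, 19 class II probes were above background in co-culture and 12 in single culture on CMT-U27 replicate 1, whose co-culture channel also had more such spots in all (65.7% against 57.9%). On CMT-U27 replicate 2 the numbers were 17 and 17. The P114 arrays differed widely, with 19 in co-culture and 20 in single culture on replicate 1, and 3 and 2 on replicate 2, so replicate 2 set the low P114 counts.

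In CMT-U27, the 17 tested probes all had a higher signal in co-culture than in single culture on both arrays, while 37.4% of all 28692 tested probes did so. The ratios are log2 values, normalised against probes of the same brightness. A log2 ratio above 0.3 on both arrays was seen for 6 class II probes, from CIITA, CD74, DLA-DRB1 and DLA-DQB1, against 0.397% of all tested probes, and 0 were below -0.3, against 0.0314%. In P114, 5 of the 17 were above 0 on both arrays, against 25.1% of all probes, 0 were above 0.3, against 0.307%, and 0 below -0.3, against 0.286%. Both comparisons were used in choosing the genes, and nothing is read from these shares. The median over the 17 probes was 0.16 in CMT-U27 and 0.01 in P114, beside 0.02 and 0.01 over all tested probes. On the single CMT-U27 arrays it was 0.22 and 0.10. In P114 no array gave a class II probe a ratio below -0.17 or above 0.16 on this scale. The scale adds an offset of 50 to every spot, and most of these probes were near background in P114. The narrow range therefore does not show unchanged signals there.

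**Figure D1:**
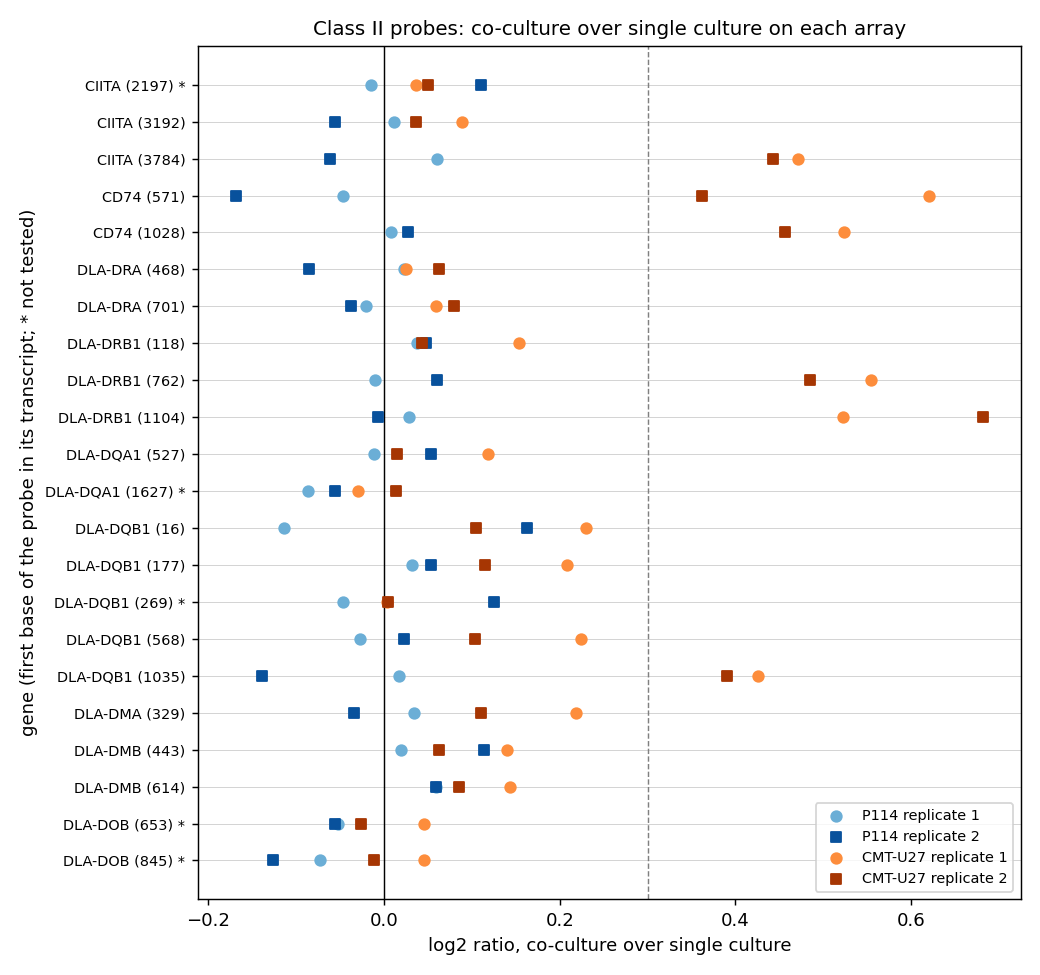
Log2 ratio of co-culture over single culture (horizontal axis) for each of the 22 class II probes (vertical axis, named by gene and first base in its transcript), with 1 point per array. The dashed line marks 0.3. In CMT-U27, 6 probes lie above it on both arrays, and the P114 points of the tested probes lie between -0.17 and 0.16.

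CIITA, the transactivator, was measured by 3 probes. Its brightest tested probe, at base 3784 of the transcript, had log2 ratios of 0.47 and 0.44 on the CMT-U27 arrays, a mean of 0.46 ± 0.02 (SD, n = 2) or 1.37-fold. On the P114 arrays it stood at 0.06 and -0.06. Its normalised log2 intensity was 7.69 and 7.85 in CMT-U27 single culture and 8.16 and 8.29 in co-culture. In P114 it lay between 6.81 and 6.93 in all 4 channels and was not well above background in any. The other probes of CIITA had ratios near 0 on this scale. That at base 3192 had ratios of 0.09 and 0.04 in CMT-U27 and 0.01 and -0.06 in P114. That at base 2197 did not pass the filter, and had 0.04 and 0.05 in CMT-U27 against -0.02 and 0.11 in P114. The probes at bases 2197 and 3192 are printed as the dim ones of CIITA, with ratios near 0. The base 2197 probe lies at chr6:31787031-31787090 of the canine assembly CanFam3.1 and the base 3192 probe at chr6:31776676-31776900, where 60 bases spread over 225 cross an exon boundary.
CIITA 2197: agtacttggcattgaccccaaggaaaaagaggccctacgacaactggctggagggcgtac
CIITA 3192: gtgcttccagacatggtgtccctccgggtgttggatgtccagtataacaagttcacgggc

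CD74, the invariant chain, was higher in co-culture on both CMT-U27 arrays by both of its probes. The probe at base 571 had log2 ratios of 0.62 and 0.36, a mean of 0.49 ± 0.18 (SD, n = 2) or 1.41-fold. The probe at base 1028 had 0.52 and 0.46, a mean of 0.49 ± 0.05 or 1.40-fold. In P114 the ratios were -0.05 and -0.17 at base 571 and 0.01 and 0.03 at base 1028. The level at base 571 in CMT-U27 was 8.78 and 9.05 in single culture and 9.40 and 9.41 in co-culture. In P114 it was 7.26 and 7.13 in single culture and 7.22 and 6.96 in co-culture. The probe at base 571 spans chr4:58695751-58696831 of CanFam3.1 and crosses an exon boundary, so it matches spliced RNA. It is shown as the brightest of the CD74 probes.
CD74 571: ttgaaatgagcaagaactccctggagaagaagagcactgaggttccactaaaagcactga

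DLA-DRB1, the beta chain of the DR pair, had a ratio above 0.3 in CMT-U27 by 2 of its 3 probes. Its probe at base 1104 had log2 ratios of 0.52 and 0.68, a mean of 0.60 ± 0.11 (SD, n = 2) or 1.52-fold, and 0.03 and -0.01 in P114. Its level in CMT-U27 was 9.61 and 9.62 in single culture and 10.13 and 10.30 in co-culture. In P114 its mean was 6.94 ± 0.09 in single culture and 6.95 ± 0.07 in co-culture, and it was not well above background in any. The probe at base 762 stood at 0.55 and 0.49 in CMT-U27 and at -0.01 and 0.06 in P114. The probe at base 118 had ratios much nearer 0, at 0.15 and 0.04 in CMT-U27 and 0.04 and 0.05 in P114. In CMT-U27 single culture it was dim, at a mean of 7.21, and well above background on 1 of 2 arrays. The scanner software's processed signal for base 118 in CMT-U27 was 16.8 and 23.1 in single culture and 41.1 and 39.5 in co-culture. Its ratio is thus not comparable with that at base 762. The probes at bases 762 and 118 are printed to set a probe with a ratio above 0.3 beside one below it. They lie at chr12:2152253-2152777 and chr12:2157321-2164447 of CanFam3.1, and each crosses an exon boundary.
DLA-DRB1 762: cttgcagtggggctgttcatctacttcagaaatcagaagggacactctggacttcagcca
DLA-DRB1 118: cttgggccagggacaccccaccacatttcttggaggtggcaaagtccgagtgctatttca

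DLA-DRA, the alpha chain that pairs with DR beta, showed no ratio above 0.3. Its probes stood at 0.06 and 0.08 (base 701) and 0.02 and 0.06 (base 468) in CMT-U27. In P114 they stood at -0.02 and -0.04, and at 0.02 and -0.08. Both probes were dim, well above background on both arrays in CMT-U27 co-culture and on 1 of 2 arrays in each other line and culture. The scanner software's own processed signal for base 701 in CMT-U27 was 12.7 and 14.7 in single culture and 35.4 and 37.0 in co-culture, with no fold given because 1 of the single-culture spots was not well above background. An offset of 50 is added to every spot before the log2 values used here, which draws the ratios of such dim spots toward 0.

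DLA-DQB1, the beta chain of the DQ pair, had 5 probes, of which 4 were tested. The brightest, at base 1035, had log2 ratios of 0.43 and 0.39 in CMT-U27, a mean of 0.41 ± 0.02 (SD, n = 2) or 1.33-fold, and 0.02 and -0.14 in P114. Its level in CMT-U27 was 7.60 and 7.67 in single culture and 8.03 and 8.07 in co-culture. In P114 it was 6.93 and 7.11 in single culture and 6.95 and 6.97 in co-culture. At bases 568, 177 and 16 the CMT-U27 ratios were smaller on this scale, with means of 0.16, 0.16 and 0.17. The probe at base 269 was not well above background in CMT-U27, and its ratios there were 0.00 and 0.01. At base 568 the scanner software's processed signal was 16.96 and 19.96 in single culture, well above background on 1 of 2 arrays, and 63.2 and 58.8 in co-culture. At base 1035 it was 79.01 and 71.15 in single culture and 207 and 227.1 in co-culture. The log2 ratios of these dimmer probes are thus not comparable with that at base 1035.

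The DLA-DQB1 probes at bases 16 and 177 are printed because they overlap in sequence and cannot be counted as separate measurements. They share a run of 53 bases, given in capitals, which 2 probes of the array hold. The files place the first at chr12:2157229-2157288 of CanFam3.1, between the DLA-DRB1 probes that reach from 2151410 to 2164447, and the second at chr12:2307852-2307911. Their ratios were 0.23 and 0.10 against 0.21 and 0.11 in CMT-U27, and -0.11 and 0.16 against 0.03 and 0.05 in P114. Among all 231 pairs of class II probes, the longest run shared by probes of different genes was 14 bases. That pair, DLA-DQB1 at base 568 and DLA-DOB at base 653, matched at 46 of 59 aligned bases (78.0%). Binding of a probe to the RNA of another gene was not tested.
DLA-DQB1 16: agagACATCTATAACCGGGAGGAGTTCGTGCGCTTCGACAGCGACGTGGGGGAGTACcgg
DLA-DQB1 177: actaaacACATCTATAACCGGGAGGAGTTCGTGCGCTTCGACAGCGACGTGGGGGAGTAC

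DLA-DQA1, the alpha chain of DQ, stood at 0.12 and 0.02 in CMT-U27 and at -0.01 and 0.05 in P114 by its tested probe at base 527. Its other probe, at base 1627, did not pass the filter and had -0.03 and 0.01 in CMT-U27. The genes of the peptide loading pair had ratios below 0.3 on this scale. DLA-DMA stood at 0.22 and 0.11 in CMT-U27 and at 0.03 and -0.03 in P114. It was well above background in all 8 channels, with levels of 7.47 to 7.69 in CMT-U27 and 7.60 to 7.92 in P114. DLA-DMB stood at 0.14 and 0.08 in CMT-U27 by its probe at base 614, and at 0.06 on each P114 array, and its second probe was at 0.14 and 0.06 in CMT-U27. DLA-DOB, the beta chain of the inhibitor of DM, had ratios of 0.05 and -0.03 and of 0.05 and -0.01 in CMT-U27 by its probes, neither of which was well above background in single culture there. DLA-DOA, its partner, is not among the chosen genes and was looked up after its values were seen; its probes had means of 0.00 and 0.01 in CMT-U27.

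**Figure D2:**
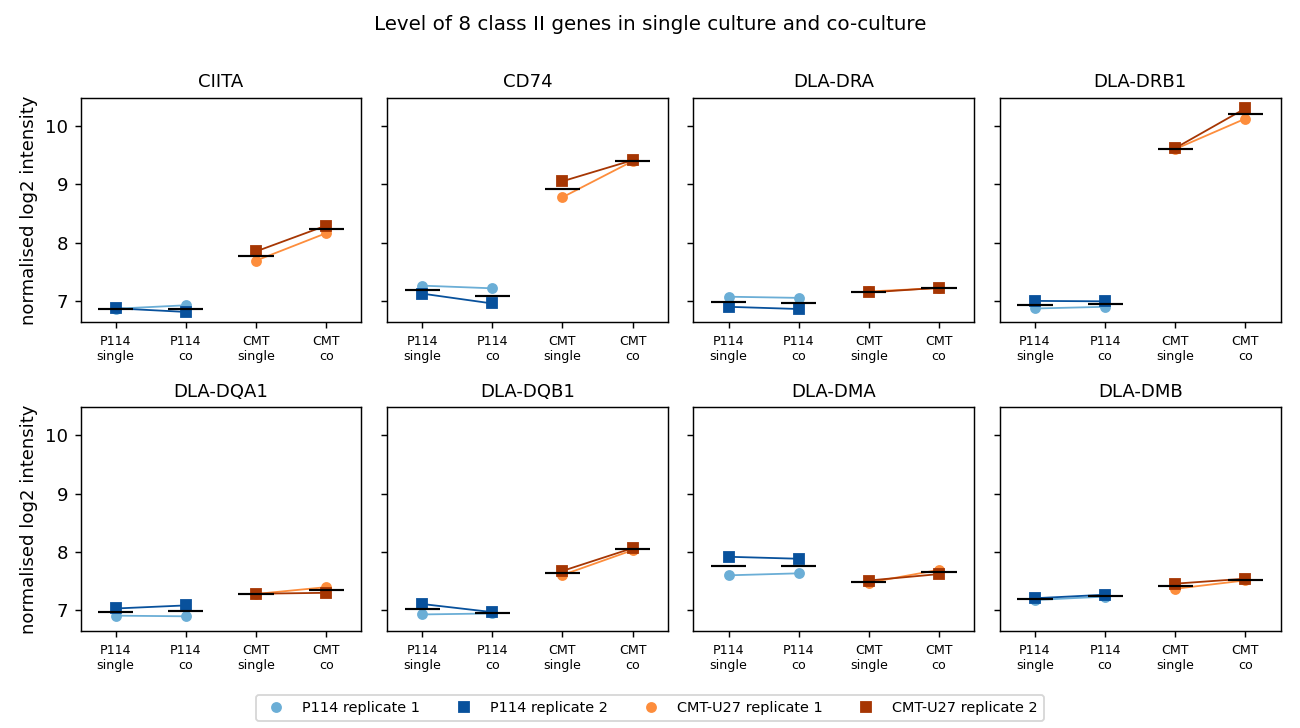
Normalised log2 intensity (vertical axis) of the brightest tested probe of each of 8 class II genes in single culture and co-culture of P114 and CMT-U27; points are arrays, lines join the channels of an array and bars are means of 2 arrays. CIITA, CD74, DLA-DRB1 and DLA-DQB1 lie higher in CMT-U27 co-culture than in its single culture, and all 4 lie lower in P114. Levels of different genes are not comparable, since probes differ in how well they bind.

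Over the 17 tested probes in CMT-U27, the ratio went with the signal of the probe in single culture (Spearman's rho 0.89 and Pearson's r 0.89, n = 17 probes that share arrays and targets). The 6 probes with ratios above 0.3 on both arrays were the brightest 6, all at 7.64 or more, and the others lay between 7.13 and 7.49. The median of all tested probes was 8.17. The size of a ratio here is thus not comparable between a bright and a dim class II probe.

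**Figure D3:**
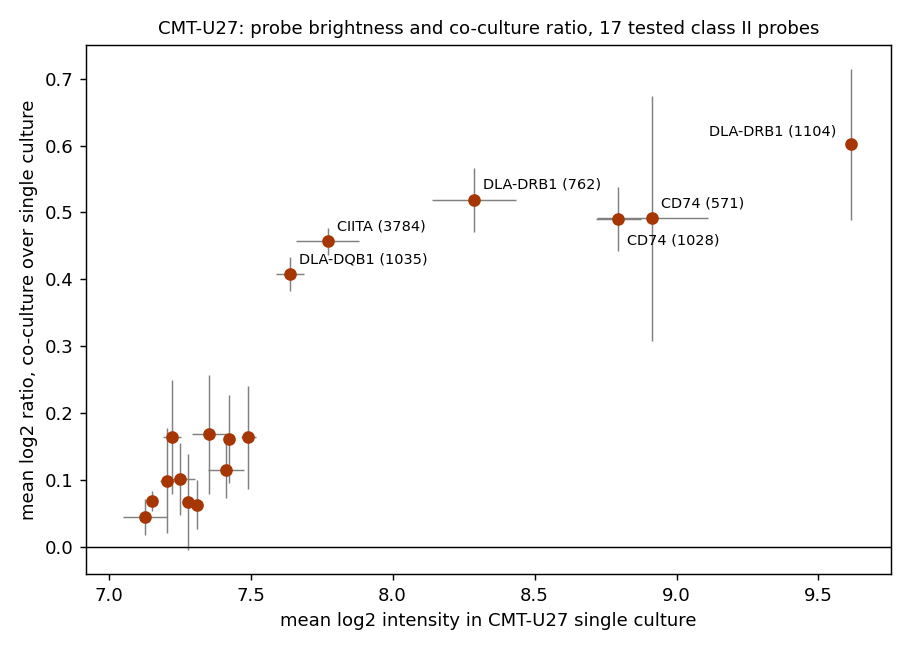
Mean log2 ratio of co-culture over single culture in CMT-U27 (vertical axis) against mean log2 intensity in CMT-U27 single culture (horizontal axis) for the 17 tested class II probes; bars are SDs over 2 arrays. The 6 named probes are the brightest and have ratios of 0.41 to 0.60.

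The ratios also depended on how the arrays were normalised. Before loess, bright spots gave more signal for the co-culture on 3 arrays, a trend that loess takes away. The median log2 ratio of the brightest 1 in 5 spots, after median centring, was 1.28 and 1.44 in CMT-U27, 0.82 on P114 replicate 1 and 0.01 on P114 replicate 2. With each array centred on its median in its place, the median of all tested probes in CMT-U27 moved to 0.68. CIITA then stood at 0.99, CD74 at 1.502, DLA-DRB1 at 1.77 and DLA-DQB1 at 0.83, all above that median. DLA-DRA stood at -0.08, below both 0 and the median, and DLA-DMA at 0.38 and DLA-DMB at 0.24, below the median. Of the 17 probes, 6 were above the median of all probes in CMT-U27 and 0 of 17 in P114. By the scanner software's deposited ratios the order of the genes in CMT-U27 was another. DLA-DQB1 stood at 1.53, DLA-DRA at 1.40 and CIITA at 1.25, while DLA-DRB1 stood at 0.65, DLA-DMB at 0.61, CD74 at 0.59, DLA-DMA at 0.58 and DLA-DQA1 at 0.53. In P114 the deposited ratios were wider than those after loess for some genes. DLA-DRB1 stood at 0.69, CD74 at -0.61 and DLA-DQB1 at -0.60, and the other genes lay between -0.09 and 0.15.

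The lines were then set side by side in single culture. The background flags of each line were known when the genes were chosen, and 14 of the 17 probes were admitted through CMT-U27, so the differences for class II genes are a description too. DLA-DRB1, CD74 and CIITA had higher signals in CMT-U27 than in P114. DLA-DRB1 at base 1104, whose levels are given above, was 6.40-fold higher in CMT-U27, as a fold against a P114 signal not well above background (means 9.61 and 6.94). Such a fold is a lower bound only as regards that background. It does not allow for the spread between arrays or for the processing, and over the alternative settings the log2 difference at this probe went down to 2.45. The log2 difference at base 1104 was 2.68 (95% interval 2.31 to 3.04). At base 762 DLA-DRB1 differed by 1.31 (log2, 95% interval 0.98 to 1.64), and at base 118 by 0.26 (-0.08 to 0.60). CD74 differed by 1.72 at base 571 (1.06 to 2.38) and by 1.92 at base 1028 (1.58 to 2.25). The base 571 and base 1028 probes of CD74 and the base 762 probe of DLA-DRB1 were each well above background on 1 of 2 P114 arrays. CIITA was 1.82-fold higher at base 3784 (means 7.77 and 6.87), in the same sense, with a log2 difference of 0.90 (0.51 to 1.29). Over the alternative settings the CIITA difference went down to 0.72. At base 3192 CIITA differed by 0.27 (-0.08 to 0.62).

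DLA-DQB1 at base 1035 differed by 0.62 (0.20 to 1.04), DLA-DQA1 by 0.31 (-0.02 to 0.64), DLA-DRA by 0.17 (-0.16 to 0.50) and DLA-DMB by 0.22 (-0.10 to 0.54). DLA-DMA, which like DLA-DMB at base 614 was well above background in all channels, pointed the other way, at -0.27 (-0.72 to 0.18). In the limma fit over all 28692 probes, 5 class II probes had an adjusted p under 0.05, all of them higher in CMT-U27 and all admitted through CMT-U27 alone. Over all probes 8.03% were called higher and 7.12% lower, and 15.2% in either direction, and nothing is read from the class II count. Without P114 replicate 1, 8 class II probes were called higher and 1, of DLA-DMA, lower, and without P114 replicate 2 there were 9 higher. With the filter on all arrays, 2 class II probes were left and 0 were called by limma (0 at an unadjusted p under 0.05). The arrays of each line shared a scan, so line and scan cannot be told apart.

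**Figure D4:**
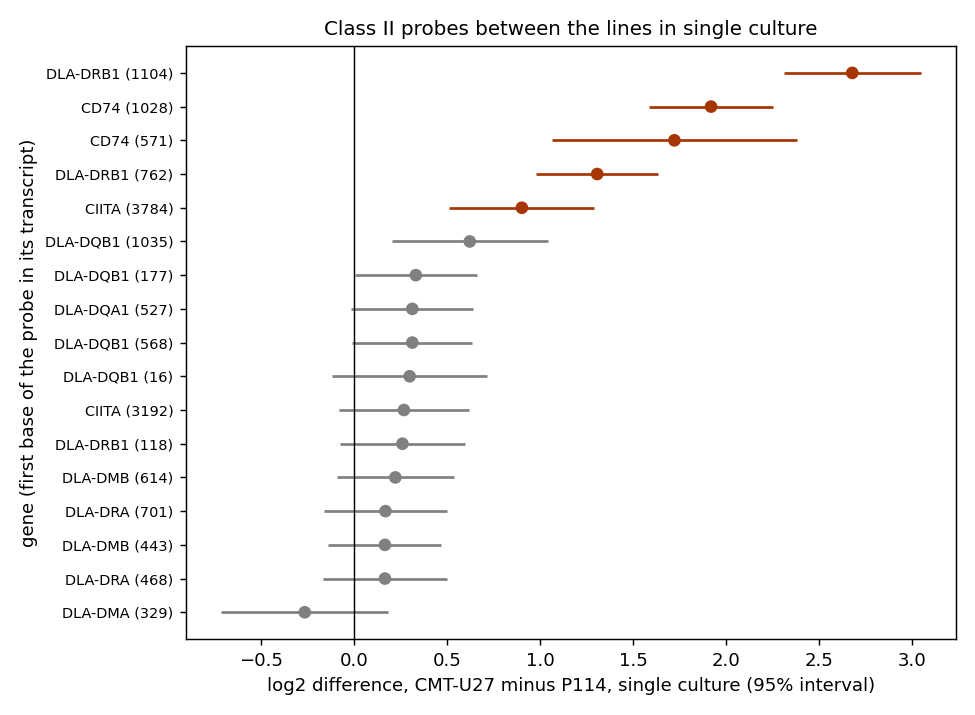
Log2 difference between CMT-U27 and P114 in single culture (horizontal axis, with 95% intervals from limma) for the 17 tested class II probes. The 5 probes in brown, from 0.90 for CIITA to 2.68 for DLA-DRB1, had an adjusted p under 0.05; all 5 were admitted through CMT-U27 alone.

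Other genes of the pathway were followed by lists that were drawn up with earlier results of these data known. In the comparison of cultures, limma called 0 probes in either line after adjustment over all probes (0%), with 928 in CMT-U27 and 1758 in P114 at an unadjusted p under 0.05. Of the promoter factors that work with CIITA, all 7 were tested, with a median ratio of 0.07 in CMT-U27 and 0.00 in P114. RFX5, a subunit of the RFX complex, stood at 0.21 and 0.11 in CMT-U27 and at 0.18 and 0.08 in P114. In single culture 2 of the 7 were higher in CMT-U27 and 0 lower, where 8.03% of all probes were higher and 7.12% lower, RFX5 by 1.06 (adjusted p = 0.0181) and CREB1, picked after its value was seen, by 0.79 (adjusted p = 0.0412).

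Of the genes that lead from interferon-gamma to CIITA, 7 of 9 on the array were tested, with a median ratio of 0.10 in CMT-U27 and 0.03 in P114. IRF1, a factor that acts at a CIITA promoter, was the 1 gene of the 7 above 0.3 on both CMT-U27 arrays (0.397% of all tested probes were). It stood at 0.45 and 0.34 there and at 0.12 and 0.08 in P114. It did not pass over all probes in the comparison of cultures (unadjusted p = 0.00499). In single culture it was the 1 gene of the list that passed (8.03% of all probes were higher), by 0.72 in CMT-U27 over P114 (adjusted p = 0.0452). JAK2, a kinase of the interferon-gamma receptor, stood at 0.10 and 0.13 in CMT-U27, and IFNGR1, a chain of that receptor, at -0.04 and 0.24.

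Of the proteases and other genes that supply peptides to class II, 7 were tested, with a median ratio of 0.10 in CMT-U27 and 0.09 in P114. CTSS, the protease that cuts CD74, stood at -0.01 and 0.00 in CMT-U27. It was near background there, well above it on 1 of 2 arrays in each culture, so these ratios do not show an unchanged signal. In single culture 3 were higher in CMT-U27 and 0 lower (8.03% and 7.12% of all probes): LGMN, an endosomal protease, by 1.29 (adjusted p = 0.00681), and CTSH by 2.35 (adjusted p = 0.00451) and CTSD by 2.63 (adjusted p = 0.0386), both picked after their values were seen. Of the genes of turnover and co-stimulation, 6 of 8 on the array were tested, with a median ratio of 0.02 in CMT-U27. CD86, a ligand that stimulates T cells beside class II, was lower in CMT-U27 in single culture, the opposite of DLA-DRB1 (adjusted p = 0.000481). Its levels were 9.37 and 9.29 in P114, and 6.97 and 6.96 in CMT-U27, where it was not well above background. In P114 its co-culture ratios were -0.34 and -0.35.

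Markers of immune cells were set beside these ratios. Of 22 macrophage markers on the array, 7 were tested, with a median ratio of 0.00 in CMT-U27 and -0.01 in P114. Their summed normalised intensity in CMT-U27 was 3211 and 3441 in single culture and 3219 and 3526 in co-culture. That is 1.00 and 1.02 times as much, but LCP1, an actin-bundling protein of leukocytes picked after its value was seen, makes up much of the sum. Its log2 level in CMT-U27 single culture was 10.73 and 10.75. In P114 the sums were 1537 and 1567 in single culture and 1627 and 1463 in co-culture. CD14, a receptor of monocytes and macrophages, stood at 0.07 and 0.02 in CMT-U27, and CD68, a lysosomal protein of macrophages, at 0.17 and 0.09. CSF1R, the receptor that macrophages need for survival, was not well above background on any CMT-U27 array. C1QC, FCER1G and SPI1 were well above background on 1 of 2 arrays in CMT-U27 co-culture and on 0 of 2 in single culture. In P114 each of them was so on 1 of 2 arrays in both cultures. Most of the other untested macrophage markers were not well above background on any CMT-U27 array. The part of macrophage RNA in the class II ratios was not tested.

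The 4 tested markers of B cells and dendritic cells had a median ratio of 0.00 in CMT-U27, with summed levels of 1.12 and 0.99 times those in single culture. The 4 tested T cell markers had a median of 0.00 and summed levels of 1.02 and 0.99 times. The 6 epithelial markers had a median of -0.01, with EPCAM, the adhesion molecule used in the sort, at -0.11 on each CMT-U27 array, and KRT18, a keratin, at -0.12 and -0.53. CLDN4, a tight junction protein, stood at 0.14 and 0.23, and KRT19, a keratin, at 0.62 and -0.08, both picked after their values were seen. In single culture 4 of these 6 were higher in CMT-U27 and 0 lower (8.03% and 7.12% of all probes), among them EPCAM by 2.63 (adjusted p = 0.000878) and KRT18 by 2.31 (adjusted p = 0.00201). EPCAM and KRT18 thus went the same way between the lines as DLA-DRB1, CD74 and CIITA.

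**Figure D5:**
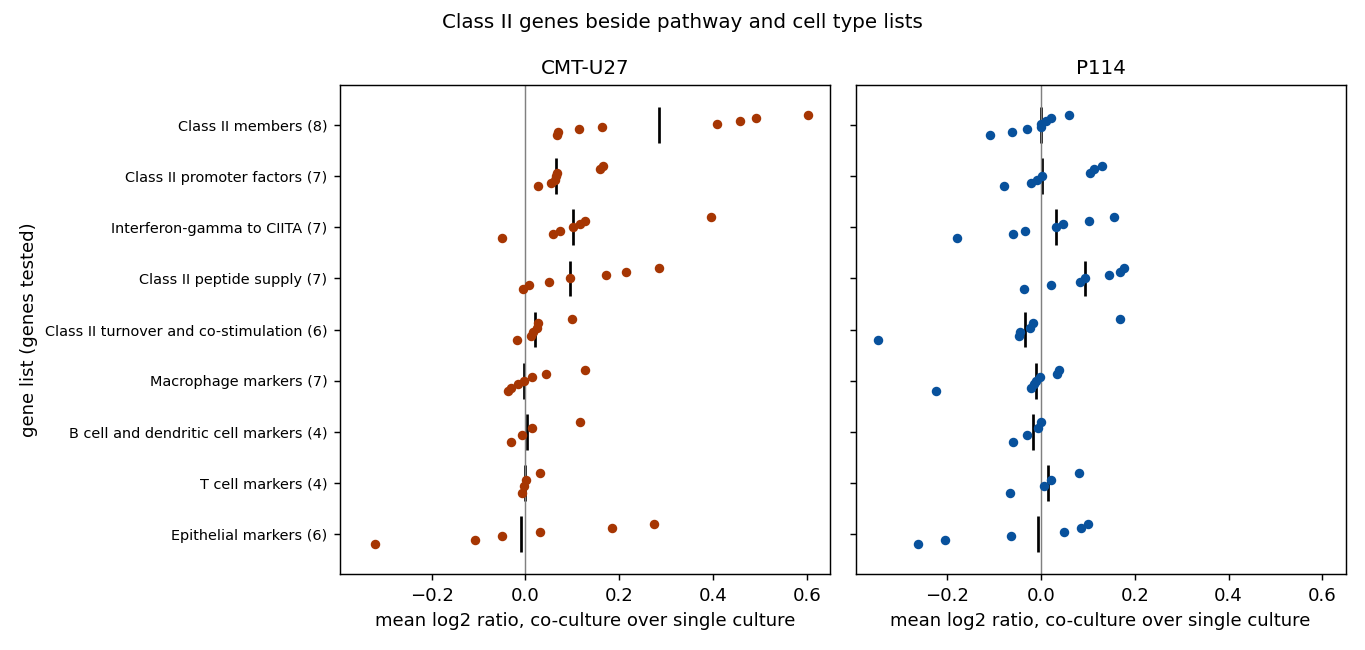
Mean log2 ratio of co-culture over single culture (horizontal axis) in CMT-U27 (left) and P114 (right) for the 8 class II genes and for each list, with the number of genes tested in brackets; each point is a gene by its brightest tested probe and black bars are medians. In CMT-U27, 4 class II genes and IRF1 lie above 0.3 and the macrophage markers have a median of 0.00.

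The genes whose levels were most like the mean of the class II genes over the 8 channels were SLPI and KRT15 (both Pearson's r = 0.998), TNFAIP3 and KRT13 (both 0.997) and PTGES (0.996), out of 11276 genes. The 8 channels come from 4 arrays, and the likeness takes in both the difference between lines and that between cultures. The mean was taken over centred levels, so class II genes with larger differences weigh more in it. In single culture the lines differed by 2.68 for DLA-DRB1 and 1.72 for CD74, against -0.27 for DLA-DMA. SLPI, a protease inhibitor, had a mean ratio of 0.86 in CMT-U27 and -0.03 in P114, and KRT15 and KRT13, keratins, had 0.81 and 0.67 in CMT-U27. TNFAIP3, an inhibitor of NF-kB signalling, had 0.25, and PTGES, a prostaglandin synthase, 0.38. Without P114 replicate 1 the closest 5 over 6 channels were SCARB1 (0.999), and TNFAIP3, HABP4, SLPI and RIMKLA (each 0.998), so 2 of the first 5 were among them.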

How the data were processed

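The authors deposited scanner files with linear intensity values (mean spot and local background) and flags of 0 or 1 per spot, and log10 ratios of Cy5 over Cy3, written by Agilent Feature Extraction 10.10.1.1 per the file headers (10.7.3.1 per the submitters' processing notes). The authors' series value table equals that log10 ratio (largest gap 0, column medians 0) and was an alternative. Array design 021193 carries CanFam3.1 positions per the files.

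Intensities were corrected with normexp (offset 50). Loess was applied within arrays, with Aquantile added for levels. Non-uniform and population-outlier spots were left out, which cost 40 probes, and 28692 probes were tested. Ratios were turned by the labelled dyes and fitted with a dye term (limma 3.58.1, R 4.3.3, version 1.17.8 of data.table; 1 residual and 2.76 prior degrees of freedom). Lines were compared in single culture over 8 channels with lmscFit (intraspot correlation 0.937; 3 residual and 2.69 prior degrees of freedom). P-values were Benjamini-Hochberg adjusted over all tested probes. The fits were tested on simulated data.

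Genes and lists were chosen with earlier results of these data known. A gene is shown by its brightest tested probe. Named are all chosen genes, listed partners and markers, and the 5 genes most like them. For probes not well above background in a group, a fold is a lower bound, taken against the higher of the probe's own signal and the lowest signal well above background on each array. Such a bound concerns the background only, and does not allow for the spread between arrays or the choice of settings. Symbols were matched to RefSeq names of UU_Cfam_GSD_1.0 (12885 of 14745). Promoter and protein sequences were not used here. The values of 1 listed marker are not reported here. Precision is limited by the number of arrays, and no spot was saturated (0 on each). A slide block could not be fitted, as 1 slide held all arrays. Alternatives were other background corrections, normalizations, filters, sources of values and probe choices, no dye term, and each array left out. Plots used Python 3.11.15 and matplotlib 3.10.9.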

Additional observations from a re-analysis of the deposited data

Results flagged for a closer look

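Among the class II probes, 2 of the 17 tested had co-culture ratios below 0 on both P114 arrays and above 0 on both CMT-U27 arrays. CD74 at base 571 differed between the lines by 0.60 on the log2 scale (CMT-U27 minus P114), and DLA-DRA at base 701 by 0.10. The difference was not tested for either. The other CD74 probe was above 0 on all 4 arrays. Such opposite signs were seen for 2501 of all tested probes (8.72%).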

How the results depend on the processing

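No paired analysis was possible because the labels carry no replicate numbers shared between the lines, and the cultures are already compared within each array. For the co-culture ratios, the class II median in CMT-U27 (0.16) became 0.40 without background correction, 0.86 with the ratios of the scanner software or, equally, of the series value table, and 0.26 with median centring, against an all-probe median of 0.68 there. The number of class II probes above 0.3 on both CMT-U27 arrays (6) became 17 with either of the deposited ratios and 0 with the filter on all channels, which left 2 class II probes. In P114 the median (0.01) was 0.006 without background correction and with no filter, -0.13 with median centring (all probes 0.16) and 0.029 with the filter on all channels. Leaving out either P114 array gave 0.017 and 0.023 there, and the CMT-U27 median was 0.105 without CMT-U27 replicate 1 and 0.219 without replicate 2. CIITA, CD74, DLA-DRB1, DLA-DQB1, DLA-DQA1, DLA-DMA and DLA-DMB kept a positive ratio in CMT-U27 under every alternative run, and DLA-DRA under all except median centring. With median centring, however, DLA-DQA1 (0.04), DLA-DMA (0.38) and DLA-DMB (0.24) lay below the all-probe median of 0.68, so their sign there does not show a rise.

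Between the lines in single culture, the class II probes called higher (5) became 0 with loess only and no between-array step, 1 with the scanner software's processed signals and 0 with the filter on all arrays. They ranged from 5 to 9 with 1 array left out, where the lone array of a line is assumed to vary like the others. The calls over all probes (4348) became 10895 with the single-culture channels alone, 9369 with no dye term, 0 with loess only (limma; 3 class II probes at an unadjusted p under 0.05), 2118 with the processed signals and 3632 to 14987 with 1 array left out. With the processed signals the share of calls that were higher was 42.9% against 53.0%, and the all-probe median moved to -0.13, against 0.38 with loess only. As a description, the log2 difference over 12 alternative settings ran from 2.45 to 7.41 for DLA-DRB1, 1.42 to 4.08 for CD74 and 0.72 to 3.88 for CIITA. It ran from 0.42 to 1.80 for DLA-DQB1, 0.26 to 1.14 for DLA-DQA1 and -0.10 to 0.68 for DLA-DRA. The shown probes of these genes were admitted through CMT-U27 alone, and the 12 settings leave out the filter on all arrays, which they did not pass. Over 13 settings DLA-DMA ran from -1.22 to 0.07 and DLA-DMB from 0.16 to 0.68. The causes were not tested, apart from the filters, which leave fewer probes. Signal near background limits DLA-DRA, DLA-DQA1, DLA-DOB and all class II probes in P114 except those of DLA-DMA and DLA-DMB.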
